A study of Mus musculus with 12 samples.

Results

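The genes described are 33 genes of cholesterol and fatty acid synthesis and of their control. They were chosen by name for their roles, with earlier results of these data known. Of these, 32 had a probe set (a group of short probes read as 1 value) annotated to them alone, and all 32 were among the 11070 genes tested, out of 18193 genes with such a probe set. The expression of Acat2, which joins 2 acetyl-CoA units at the entry to the mevalonate pathway, was not analysed here. The sterol arm held 17 tested genes, from Hmgcs1 to Dhcr7, and the fatty acid arm held 8. The other 7 were Srebf1, Srebf2, Scap and Insig1, the sterol carrier Stard4, and the LXR targets Abca1 and Mylip.

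RNA of 12 tumours had been measured on Affymetrix mouse arrays. The tumours had grown in the cecum of C57BL/6 mice from the mouse colon carcinoma line MC38, whose cells in all 4 groups carried an inducible hairpin against TDO2, an enzyme that degrades tryptophan. The groups were APC-WT without doxycycline (no Dox), APC-WT with Dox in the drinking water, APC-KO without Dox and APC-KO with Dox, with 3 tumours each. The sources used here do not say if the APC-KO cells were 1 clone, nor if each tumour was from an animal of its own, so the p-values reflect just the spread among these 12 samples, and that spread could be technical. Animals with Dox but no hairpin were not analysed here, so Dox and the hairpin cannot be told apart.

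All 3 Tdo2 probe sets had mean log2 values (2.585, 3.122 and 3.849) under the floor of 5.552 used to filter genes, so the knockdown could not be read from these arrays. The Apc probe set with the clearest difference averaged 7.70 and 7.74 in the APC-WT groups without and with Dox and 6.86 and 6.79 in the APC-KO groups. The other Apc probe sets above the floor averaged 8.45 and 8.49 against 8.35 and 8.26, and 6.39 and 6.31 against 5.98 and 5.82. The deleted stretch of Apc is not named in the labels. Host RNA was measured together with tumour RNA: 9 of 10 macrophage markers lay at or above the floor. Of 10 colon epithelium markers, 7 (Vil1, Krt20, Muc2, Car1, Slc26a3, Cdh17 and Fabp2) lay under it on all 12 arrays, as did Adipoq, Cidec, Lep, Pparg and Plin4 among 8 adipocyte markers measured. In bulk tumours, fewer cells of a type and less RNA per cell cannot be told apart.

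Cells build cholesterol from acetyl-CoA by way of mevalonate, squalene and lanosterol, and build fatty acids from the same precursor by way of malonyl-CoA. Both routes are switched on by the SREBP transcription factors, which sit in the endoplasmic reticulum membrane bound to Scap and are held there by Insig proteins while sterols are plentiful. When sterols fall, Scap escorts SREBP to the Golgi, where the proteases encoded by Mbtps1 and Mbtps2 release the active factor. Srebf2 mainly drives the sterol genes and Srebf1 mainly the fatty acid genes, while LXR, a sensor of oxidised sterols, drives Srebf1 and the export gene Abca1. Rapidly growing tumour cells use both routes to make membranes.

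Active SREBP works with NF-Y, a factor that binds the CCAAT box, so promoters of some members are shown first, for the reasons given with each. Sequences are from RefSeq on the build GRCm38.p6, each 5′ to 3′ on the gene's strand, from 250 bases before to 50 bases after the annotated start. Of the 33 genes, 26 matched, with 32 promoters between them. The letters CCAAT were searched, with the E-box CACGTG, which SREBP can also bind, and a form of the sterol regulatory element, TCACNCCAC. All were searched on both strands, may overlap each other, and stand in capitals, so that ATTGG is the CCAAT box of the other strand. Hmgcs1 (chr13:119690101-119690400, plus strand) makes HMG-CoA and is shown as the 1 member with TCACNCCAC, beside 4 CCAAT matches. Msmo1 (chr8:64733529-64733828, minus strand), with 3, had the widest range over the 12 tumours. Hsd17b7 (chr1:169969156-169969455, minus strand), with 3 and an E-box, and Ebp (chrX:8193463-8193762, minus strand), with 2, are sterol genes that were lower in APC-KO tumours, the first of them with Dox. Elovl6 (chr3:129532136-129532435, plus strand), a fatty acid gene that was higher there, had 0 matches. Dhcr7, Acaca, Srebf1 and Mylip also passed between genotypes and have promoters that are not printed. Dhcr7, which was higher in APC-KO tumours, had a promoter with 2 CCAAT matches and another with an E-box. Srebf1, also higher, had promoters with CCAAT matches. Acaca, higher too, had 0 matches, and Mylip, which was lower, had 3 CCAAT matches. A link between these letters and the direction of a difference was not tested.
Hmgcs1: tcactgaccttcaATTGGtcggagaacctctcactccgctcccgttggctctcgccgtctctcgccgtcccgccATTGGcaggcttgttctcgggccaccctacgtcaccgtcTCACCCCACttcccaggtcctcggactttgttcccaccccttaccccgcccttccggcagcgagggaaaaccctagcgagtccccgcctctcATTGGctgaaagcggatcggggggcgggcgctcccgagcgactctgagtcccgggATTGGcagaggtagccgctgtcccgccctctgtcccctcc
Msmo1: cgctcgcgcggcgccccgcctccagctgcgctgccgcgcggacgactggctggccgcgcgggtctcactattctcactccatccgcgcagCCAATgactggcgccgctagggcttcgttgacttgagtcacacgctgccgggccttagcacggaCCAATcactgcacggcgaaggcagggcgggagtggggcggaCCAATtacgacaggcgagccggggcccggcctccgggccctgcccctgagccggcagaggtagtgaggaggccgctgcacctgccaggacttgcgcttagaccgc
Hsd17b7: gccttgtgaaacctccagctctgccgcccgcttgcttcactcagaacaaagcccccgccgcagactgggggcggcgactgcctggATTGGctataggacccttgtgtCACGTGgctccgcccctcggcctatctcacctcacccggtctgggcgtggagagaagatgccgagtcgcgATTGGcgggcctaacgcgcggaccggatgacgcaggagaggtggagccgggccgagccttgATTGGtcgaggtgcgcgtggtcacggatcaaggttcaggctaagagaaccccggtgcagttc
Ebp: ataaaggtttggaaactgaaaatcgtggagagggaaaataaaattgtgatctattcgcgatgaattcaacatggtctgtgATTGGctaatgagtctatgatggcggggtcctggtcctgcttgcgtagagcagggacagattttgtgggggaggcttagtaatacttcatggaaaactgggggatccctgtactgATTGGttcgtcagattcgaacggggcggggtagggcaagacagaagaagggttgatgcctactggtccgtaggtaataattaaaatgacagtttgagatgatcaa
Elovl6: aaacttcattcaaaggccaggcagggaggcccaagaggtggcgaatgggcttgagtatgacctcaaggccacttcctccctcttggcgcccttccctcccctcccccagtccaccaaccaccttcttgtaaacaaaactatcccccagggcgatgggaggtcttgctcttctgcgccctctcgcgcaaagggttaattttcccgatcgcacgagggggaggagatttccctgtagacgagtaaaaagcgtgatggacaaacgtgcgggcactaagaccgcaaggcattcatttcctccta

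CCAAT stood in 14 of 18 sterol arm promoters (77.8%), that of Acat2 included, in 2 of 5 fatty acid arm promoters (40%) and in 37.4% of all 32851 promoters of this length. CACGTG stood in 7 of the 32 member promoters (21.9%) against 7.15% of all promoters. Promoters of the same gene can overlap, and the 2 of Scap share the same CACGTG, which was counted in both. TCACNCCAC stood in 1 of the 32 (3.12%), that of Hmgcs1, against 1.24% of all. A match is a description of the letters only, and Fdps, Fdft1, Sqle, Stard4, Scd1, Scd2 and Fads1 had no entry.

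The 32 genes varied from tumour to tumour within groups more than most genes did. The residual SD of the fit, on the log2 scale, had a median of 0.247 over the sterol arm and 0.176 over the fatty acid arm, against 0.0963 over all tested genes, and 29 of the 32 lay above that last value. Msmo1, the C4-methyl sterol oxidase, spanned 1.36 log2 units over the 12 tumours, and Fdps, which makes farnesyl diphosphate, and Scd2, a stearoyl-CoA desaturase, spanned 1.32 each. Ebp, Scap and Acly, which cleaves citrate to acetyl-CoA, were the steadiest, with residual SDs of 0.058, 0.072 and 0.081.

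Within groups the genes tended to be high or low in the same tumour. APC-WT no-Dox tumour 2 was the lowest of its group for 15 of 17 sterol genes and 8 of 8 fatty acid genes, and the lowest of all 12 tumours for 24 of the 32 members. Scd2 had log2 values of 12.22, 11.24 and 12.24 in APC-WT tumours 1, 2 and 3 without Dox, and Fdps of 10.22, 9.17 and 9.96. The same tumour had the highest summed adipocyte marker level of its group (644, on the linear scale, against 537 and 399). That order followed Fabp4, at log2 8.53, 8.90 and 7.81 in tumours 1, 2 and 3. Retn (5.28, 5.59 and 5.86) and Lipe (5.96, 5.67 and 5.59), the other adipocyte markers tested, were not highest in tumour 2. The part of these differences in the low values was not tested. APC-KO no-Dox tumour 1 was the highest of its group for 17 of 17 sterol genes. APC-KO Dox tumour 2 was the lowest of its group for 14 of 17 sterol and 8 of 8 fatty acid genes. Whether replicate numbers are linked across groups is not stated.

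**Figure D1:**
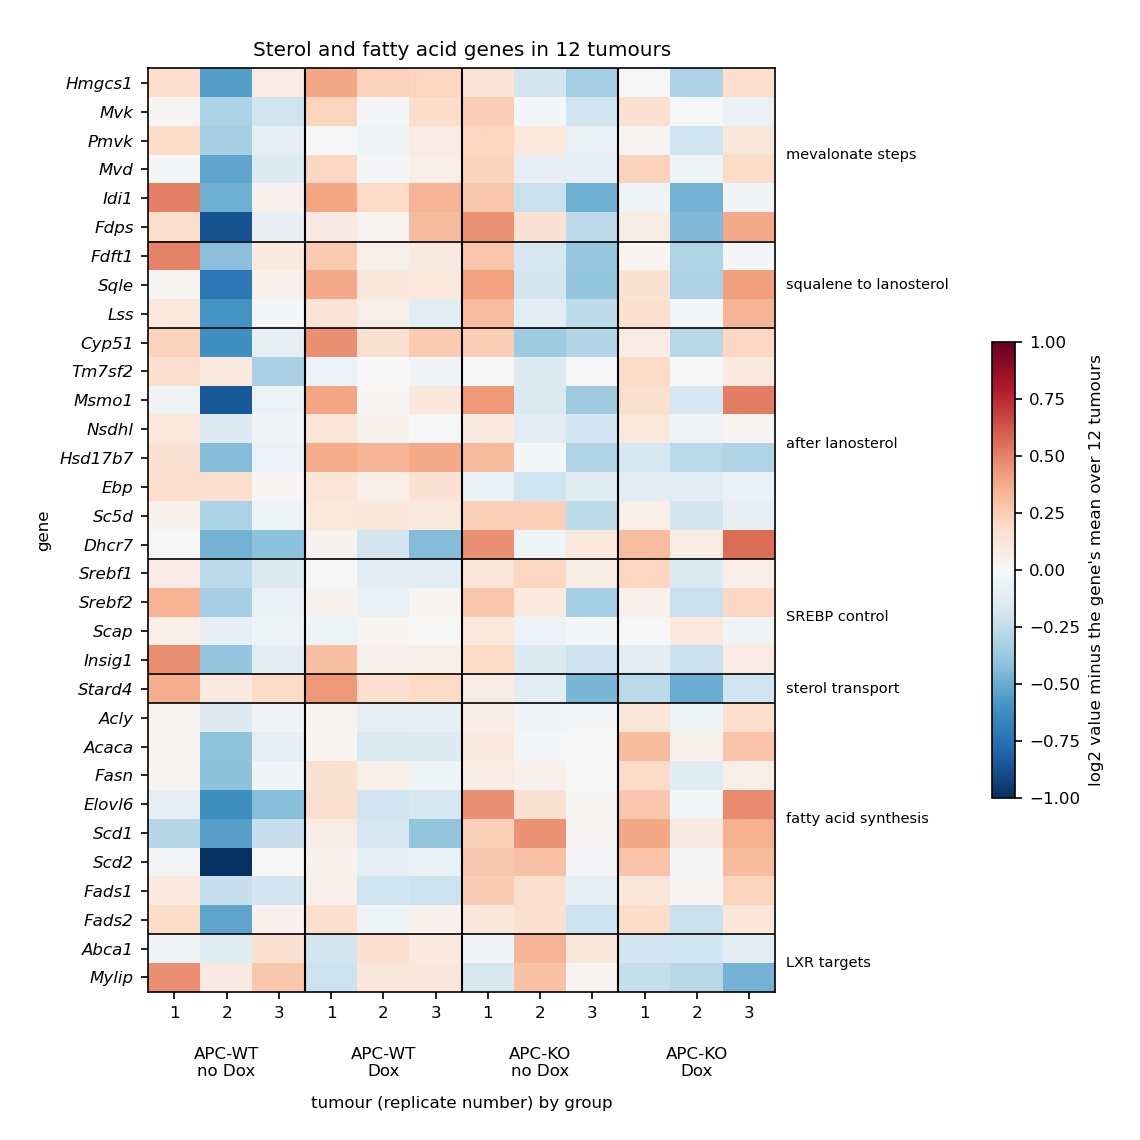
Log2 value of each of the 32 genes (rows, grouped by role) in each of the 12 tumours (columns, by group and replicate number), shown as the difference from the gene's mean over the 12 tumours. APC-WT no-Dox tumour 2 is a blue column across both arms, the fatty acid rows are mostly red in the APC-KO groups, and Ebp and Stard4 are blue there.

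Averaged over both Dox states, most fatty acid synthesis genes were higher in the APC-KO tumours. On that average, 5 of the 8 passed limma's test at an adjusted p under 0.05 and 8 of 8 differences lay above 0. The genes that rose were Scd1, Elovl6, Scd2, Acaca and Fads1, by 0.51 ± 0.09, 0.45 ± 0.11, 0.38 ± 0.14, 0.25 ± 0.07 and 0.23 ± 0.08 log2 units (± SE, 6 tumours against 6). The arm's median difference was 0.24, against 0.02 for the sterol arm and 0.014 for all tested genes. With the mean of each gene's probe sets in place of the brightest, the arm's median was 0.10, and with Dox alone 0.081 in place of 0.24. Over all members 10 of 32 passed, 7 higher and 3 lower, against 36.5% of all tested genes (20.9% higher and 15.6% lower), so the share of members that passed was near that of all genes. The count was 6 without APC-WT Dox tumour 2, APC-WT Dox tumour 3 or APC-KO Dox tumour 3. Within single Dox states fewer fatty acid genes passed: 2 of 8 without Dox (Elovl6 and Scd1) and 2 of 8 with Dox (Acaca and Scd1). Of all tested genes 24.9% passed without Dox and 19.9% with Dox.

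Scd1, the desaturase that places a double bond in saturated fatty acids, had log2 values of 10.12, 9.87 and 10.18 in the APC-WT tumours without Dox and 10.48, 10.24 and 10.02 with Dox. In the APC-KO tumours it had 10.65, 10.86 and 10.42 without Dox and 10.79, 10.50 and 10.77 with Dox. All 6 APC-KO values lay above the APC-WT values of the same Dox state. The difference was 0.59 ± 0.13 without Dox (limma adjusted p = 0.00519), and 0.44 ± 0.13 with Dox, 1.36-fold higher (adjusted p = 0.0282). A second Scd1 probe set gave 0.94 without Dox (adjusted p = 0.00019) and 0.27 with Dox (adjusted p = 0.172). The call with Dox was lost without APC-WT Dox tumour 2 or 3 or APC-KO Dox tumour 1 or 3.

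Elovl6, which lengthens palmitate to stearate, had values of 8.35, 7.82 and 8.01 in APC-WT tumours without Dox and 8.60, 8.24 and 8.27 with Dox. In APC-KO tumours they were 8.90, 8.59 and 8.45 without Dox and 8.71, 8.43 and 8.91 with Dox. The groups did not overlap without Dox, where the difference was 0.58 ± 0.16 (adjusted p = 0.0145), and overlapped with Dox, where it was 0.31 ± 0.16 and did not pass (adjusted p = 0.184). Its other probe set above the floor gave 0.64 and 0.36. The call without Dox was lost without APC-WT no-Dox tumour 2 or APC-KO no-Dox tumour 1, and the averaged call was kept in every alternative run. The calls of Scd1 without Dox and averaged were also kept in every alternative run.

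Acaca, the carboxylase that makes malonyl-CoA and sets the pace of the pathway, had values of 8.99, 8.83 and 8.85 in APC-WT and 9.29, 9.02 and 9.26 in APC-KO tumours with Dox, and these did not overlap. It rose by 0.30 ± 0.10 there (adjusted p = 0.0492), a call lost with the mean of probe sets (0.053, adjusted p = 0.689), without the trend, with no filter on level and with centred arrays, and one that 8 of the 12 omissions of a single tumour ended (all but APC-WT no-Dox tumours 1 and 2, APC-WT Dox tumour 1 and APC-KO Dox tumour 2). Without Dox its values were 8.99, 8.57 and 8.88 against 9.07, 8.97 and 8.98, which overlapped, with a difference of 0.19 ± 0.10 (adjusted p = 0.173). Its second probe set lay under the floor, and the averaged call was lost with the mean of both (0.12, adjusted p = 0.112).

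Scd2 had values of 12.29, 12.16 and 12.17 in APC-WT and 12.53, 12.23 and 12.56 in APC-KO tumours with Dox, and of 12.51, 12.54 and 12.23 in APC-KO tumours without Dox. Its averaged difference had an adjusted p of 0.0482 and became 0.21 without APC-WT no-Dox tumour 2. Leaving out any APC-WT Dox tumour, APC-KO no-Dox tumour 1 or 2, or APC-KO Dox tumour 1 or 3 ended its call. Neither of its other probe sets passed, at 0.39 (adjusted p = 0.0824) and 0.43 (adjusted p = 0.0607). Fads1, the delta-5 desaturase of polyunsaturated fatty acids, had values of 9.58, 9.26 and 9.29 in APC-WT tumours without Dox, 9.53, 9.28 and 9.27 in APC-WT tumours with Dox, 9.74, 9.65 and 9.40 in APC-KO tumours without Dox and 9.59, 9.50 and 9.71 in APC-KO tumours with Dox. It had an adjusted p of 0.0292 averaged over Dox, and its second probe set gave -0.08 (adjusted p = 0.34). Its call was lost without APC-WT tumour 2 or 3 of either Dox state, APC-KO no-Dox tumour 1 or 2 or APC-KO Dox tumour 3. Averaged differences were 0.10 ± 0.04 for Acly, 0.08 ± 0.07 for the fatty acid synthase Fasn and 0.05 ± 0.11 for the delta-6 desaturase Fads2, none of which passed. Fasn overlapped between genotypes in both Dox states, with values of 10.40, 10.31 and 10.21 in APC-WT and 10.44, 10.13 and 10.31 in APC-KO tumours with Dox.

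**Figure D2:**
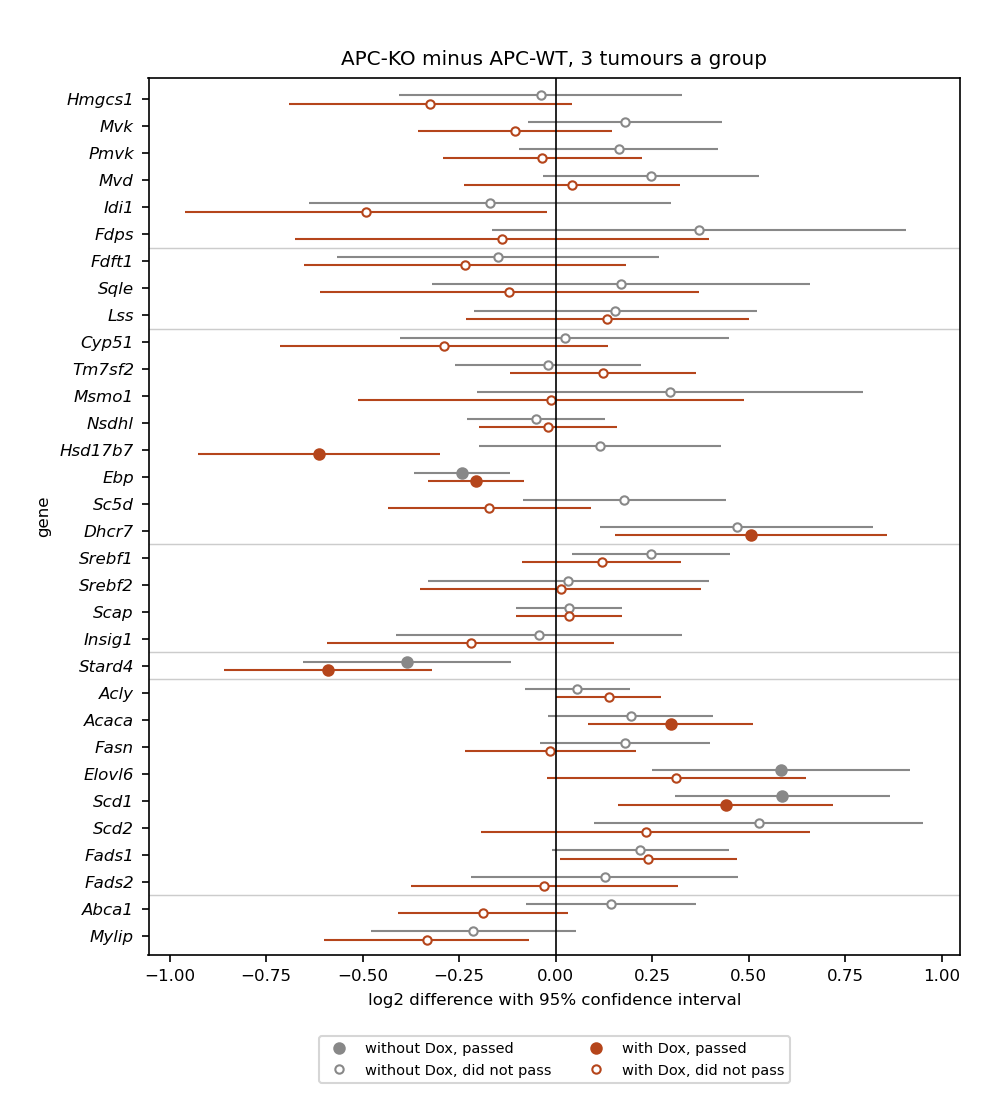
Log2 difference between APC-KO and APC-WT tumours for each gene (rows, in order of role), without Dox in grey and with Dox in orange, with 95% confidence intervals from limma; filled points passed. Scd1, Elovl6 and Acaca lie to the right, Ebp and Stard4 to the left, and Hsd17b7 lies at -0.61 with Dox and at 0.12 without it.

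Few sterol genes differed between genotypes in the brightest probe set, from which each gene was read. Of the arm's 17 genes, Dhcr7 was higher and Ebp was lower in APC-KO tumours averaged over Dox, Hsd17b7 was lower with Dox, and the others did not pass. Second probe sets of Lss and Sc5d did pass, lower in APC-KO tumours. The arm's median difference was 0.15 without Dox and -0.12 with Dox, against 0.011 and 0.013 over all tested genes. The first became -0.04 without APC-KO no-Dox tumour 1, and the second became 0.02 without APC-KO Dox tumour 2. Without Dox 4 of the 32 members passed, 2 higher and 2 lower, against 24.9% of all tested genes (13.8% higher and 11.1% lower). With Dox 6 passed, 3 in each direction, against 19.9% of all (11.9% higher and 7.99% lower); 59.9% of all calls were higher there, and 48.2% once arrays were centred on their medians. The count without Dox was 7 without APC-WT no-Dox tumour 1. That with Dox was 2 without APC-WT Dox tumour 3 or APC-KO Dox tumour 1, and 3 without APC-WT Dox tumour 2 or APC-KO Dox tumour 3.

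Ebp, the isomerase that shifts the sterol ring double bond, was lower in every APC-KO tumour than in every APC-WT tumour. Its log2 values were 9.46, 9.46 and 9.31 in APC-WT tumours without Dox and 9.41, 9.36 and 9.44 with Dox. They were 9.23, 9.10 and 9.18 in APC-KO tumours without Dox and 9.19, 9.19 and 9.23 with Dox. The difference was -0.24 ± 0.06 in tumours without Dox (adjusted p = 0.00843) and -0.21 ± 0.06 in those with Dox (adjusted p = 0.0235), or a 1.17-fold lower level on average (adjusted p = 0.000869). The averaged call and that without Dox were kept in every alternative run, while that with Dox was lost without APC-WT Dox tumour 1 or 3 or APC-KO Dox tumour 1 or 2. Ebp and Stard4 were the 2 members whose 6 APC-KO values all lay below their 6 APC-WT values, which 6.67% of all tested genes also did.

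Dhcr7, the reductase that makes cholesterol from 7-dehydrocholesterol, moved the other way. It had 7.25, 6.78 and 6.84 in APC-WT tumours without Dox and 7.29, 7.07 and 6.82 with Dox. It had 7.71, 7.21 and 7.36 in APC-KO tumours without Dox and 7.56, 7.33 and 7.81 with Dox. The groups did not overlap with Dox (difference 0.51 ± 0.16, adjusted p = 0.0441) and overlapped without it, where the difference of 0.47 ± 0.16 did not pass (adjusted p = 0.0517). On average it was 1.40-fold higher (adjusted p = 0.00505), a call kept in every alternative in which it was tested. The call with Dox was lost without APC-WT Dox tumour 2 or 3, APC-KO no-Dox tumour 3 or APC-KO Dox tumour 1 or 3. It has 1 probe set, as does Ebp.

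Hsd17b7, the keto-sterol reductase of C4 demethylation, had the largest difference among the 17 sterol genes with Dox. It had 7.76, 7.73 and 7.77 in APC-WT tumours with Dox and 7.21, 7.12 and 7.09 in APC-KO tumours with Dox. No value of either group overlapped, and the difference was -0.61 ± 0.15, a 1.53-fold lower level (adjusted p = 0.00961). Its other probe sets above the floor gave -0.29 (adjusted p = 0.0505) and -0.35 (adjusted p = 0.0199). Without Dox it had 7.54, 6.96 and 7.33 in APC-WT and 7.71, 7.37 and 7.09 in APC-KO tumours, and these groups overlapped.

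Among the mevalonate genes none of 6 tested passed between genotypes in either Dox state. Idi1, the isopentenyl diphosphate isomerase, had 9.76, 9.55 and 9.70 in APC-WT and 9.32, 8.90 and 9.34 in APC-KO tumours with Dox, which did not overlap (difference -0.49 ± 0.22, adjusted p = 0.134). Hmgcs1, which makes HMG-CoA, had 11.16, 11.00 and 10.99 and 10.77, 10.46 and 10.95, which did not overlap either (difference -0.33 ± 0.17, adjusted p = 0.208). With Dox 8 members lay wholly lower and 3 wholly higher in APC-KO tumours, where 18% and 23.4% of all tested genes did so. Without Dox 2 lay wholly lower and 2 wholly higher, against 16.4% and 20.8% of all. Mvd, which decarboxylates mevalonate diphosphate, had 7.09, 6.58 and 6.98 in APC-WT and 7.34, 7.03 and 7.03 in APC-KO tumours without Dox, which overlapped. The other mevalonate genes were Mvk and Pmvk, the mevalonate kinases, and Fdps, which with Mvd had differences between -0.14 (Fdps) and 0.04 (Mvd) with Dox. Without Dox those 4 lay between 0.16 (Pmvk) and 0.37 (Fdps).

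The 3 genes between squalene and lanosterol did not pass between genotypes in their brightest probe set. Fdft1, the squalene synthase, differed by -0.15 ± 0.19 without Dox and -0.24 ± 0.19 with Dox, Sqle, the squalene epoxidase, by 0.17 ± 0.23 and -0.12 ± 0.23, and Lss, the lanosterol synthase, by 0.15 ± 0.17 and 0.13 ± 0.17. The 95% intervals for Sqle ran from -0.32 to 0.66 without Dox and from -0.61 to 0.37 with Dox, so a difference in either direction within those limits cannot be told from 0. Lss had 8.23, 7.53 and 8.10 in APC-WT tumours without Dox, 8.25, 8.18 and 8.02 in APC-WT tumours with Dox, 8.43, 8.01 and 7.87 in APC-KO tumours without Dox and 8.28, 8.10 and 8.46 in APC-KO tumours with Dox. Its second probe set lay the other way, at -0.87 without Dox (adjusted p = 0.0083) and -0.95 with Dox (adjusted p = 0.00583), so no direction can be given for Lss. Fdft1 had 9.26, 9.06 and 9.09 in APC-WT and 9.02, 8.70 and 8.98 in APC-KO tumours with Dox, which did not overlap. After lanosterol, Cyp51, the lanosterol demethylase, differed by 0.02 ± 0.20 and -0.29 ± 0.20, and Msmo1 by 0.30 ± 0.23 and -0.01 ± 0.23. Tm7sf2 and Nsdhl, a sterol reductase and a C4 decarboxylase, and Sc5d, the C5 desaturase, lay between -0.05 (Nsdhl) and 0.18 (Sc5d) without Dox and between -0.17 (Sc5d) and 0.12 (Tm7sf2) with Dox. The second probe set of Sc5d gave -0.19 without Dox (adjusted p = 0.334) and -0.48 with Dox, which passed (adjusted p = 0.0244), as did its average of -0.33 (adjusted p = 0.0152).

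Stard4, a carrier that moves cholesterol between membranes, was lower in APC-KO tumours in both Dox states. It had 8.42, 8.16 and 8.26 in APC-WT tumours without Dox and 8.49, 8.23 and 8.26 with Dox. It had 8.13, 7.95 and 7.61 in APC-KO tumours without Dox and 7.79, 7.56 and 7.86 with Dox. The genotypes did not overlap in either state, with differences of -0.38 ± 0.13 (adjusted p = 0.038) and -0.59 ± 0.13 (adjusted p = 0.00511). The call without Dox was lost without APC-WT no-Dox tumour 1 or 3 or APC-KO no-Dox tumour 2 or 3. Of its other probe sets 1 gave -0.34 and -0.67 (adjusted p = 0.0407 and 0.000868), and the other 0.04 and -0.34, which did not pass (adjusted p = 0.896 and 0.167).

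Of the SREBP control genes, Srebf1 was the 1 that passed, averaged over Dox and in neither Dox state (0.18 ± 0.07, adjusted p = 0.048), and 10 of the 12 omissions of a single tumour ended that call (all but APC-WT no-Dox tumour 1 and APC-KO Dox tumour 2). It had 9.38, 9.02 and 9.15 in APC-WT and 9.41, 9.51 and 9.37 in APC-KO tumours without Dox, which overlapped. With Dox Srebf1 had 9.29, 9.18 and 9.19 in APC-WT and 9.51, 9.15 and 9.36 in APC-KO tumours. Srebf2 averaged 8.87 and 8.88 in the APC-WT groups and 8.90 and 8.90 in the APC-KO groups. Its second probe set gave a difference of -0.19 averaged over Dox, which passed (adjusted p = 0.0456), so the 2 probe sets disagree. Scap, the escort protein, averaged 9.34 and 9.35 in the APC-WT groups and 9.37 and 9.38 in the APC-KO groups. Insig1, a retention protein of SREBP, had 8.70, 7.84 and 8.12 in APC-WT tumours without Dox and 8.53, 8.27 and 8.29 with Dox. In APC-KO tumours it had 8.43, 8.09 and 8.02 without Dox and 8.12, 8.01 and 8.31 with Dox. It differed between genotypes by -0.04 ± 0.17 without Dox and -0.22 ± 0.17 with Dox.

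Of the LXR targets 1 of 2 passed. Mylip, the ligase that marks the LDL receptor for breakdown, was lower in APC-KO tumours averaged over Dox (-0.27 ± 0.09, adjusted p = 0.0254), and the call was lost without APC-WT no-Dox tumour 1, APC-WT Dox tumour 2 or 3, APC-KO no-Dox tumour 1 or APC-KO Dox tumour 3. It had 9.94, 9.57 and 9.75 in APC-WT tumours without Dox and 9.28, 9.60 and 9.60 with Dox, against 9.33, 9.78 and 9.52 and 9.24, 9.21 and 9.01 in APC-KO tumours. Abca1, the cholesterol exporter, differed by 0.14 ± 0.10 without Dox and -0.19 ± 0.10 with Dox, and neither passed.

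**Figure D3:**
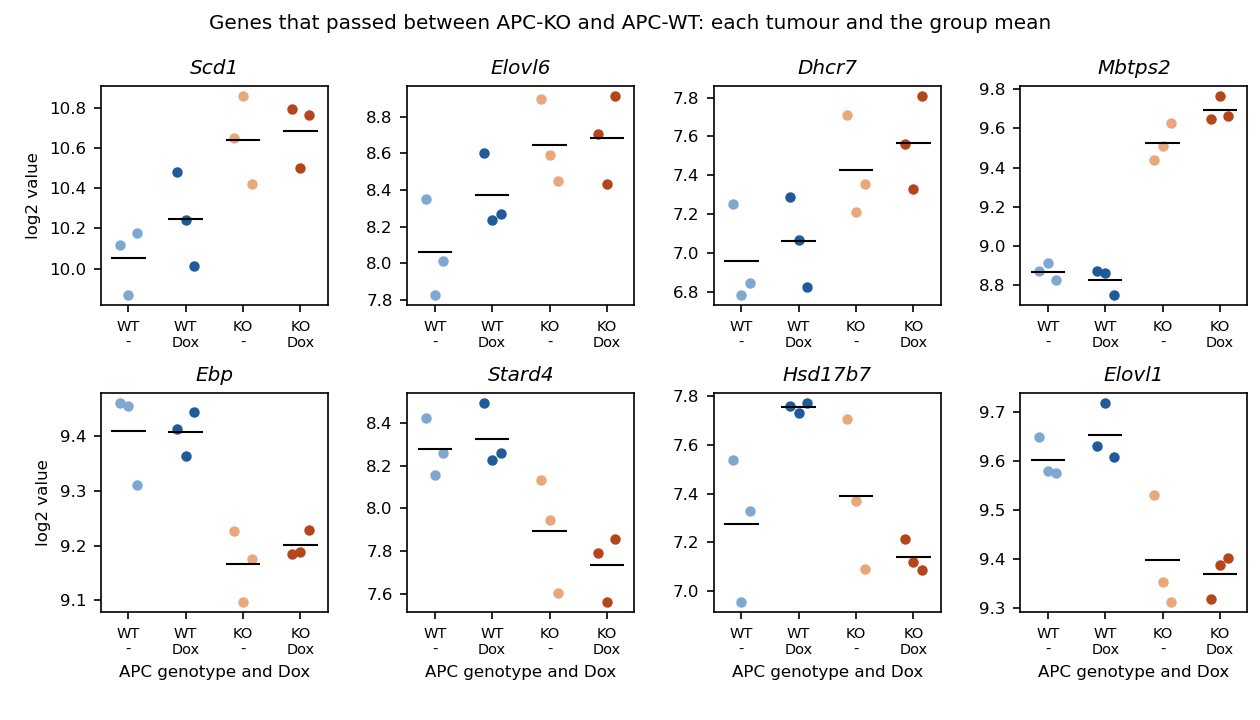
Log2 value in each tumour (points) with the group mean (line) for 8 genes that passed between APC-KO and APC-WT tumours, by genotype (WT or KO) and Dox (a dash marks none). Mbtps2 separates the genotypes most widely, by 0.76 on average, and Hsd17b7 values do not overlap between genotypes with Dox and overlap without it.

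Some markers of other cells differed between the genotypes too. Of all tested genes 36.5% passed averaged over Dox (20.9% higher and 15.6% lower), 24.9% without Dox and 19.9% with Dox. Of 6 T cell markers tested, 5 were lower in APC-KO tumours averaged over Dox, and their summed linear level ran from 776 to 1044 and from 599 to 774 in the APC-WT groups without and with Dox and from 557 to 561 and from 389 to 612 in the APC-KO groups. Of 5 endothelial markers tested 3 were higher, with sums of 607 to 799 in APC-WT and 774 to 881 in APC-KO tumours, and of 7 fibroblast markers 3 were higher. Of 3 neutrophil markers 1 was higher averaged over Dox, while 3 were higher without Dox (median difference 2.94) and S100a8 and S100a9 were lower with Dox (median of the 3 markers -2.13). Of 9 macrophage markers 1 was higher and 1 lower, and of 3 adipocyte, 2 smooth muscle and 2 colon epithelium markers tested 0 passed (limma). Some signs of RNA quality differed between genotypes too, but not in the same direction in both Dox states. Without Dox the 18S ribosomal RNA controls ran from 9.201 to 9.327 on the log2 scale in APC-WT and from 9.475 to 9.758 in APC-KO tumours. The 3′ minus 5′ log2 difference of the Gapdh controls ran from -0.116 to -0.092 and from -0.184 to -0.154 there. With Dox the 18S values ran from 9.058 to 9.328 and from 8.959 to 9.237, and the Gapdh values from -0.188 to -0.158 and from -0.156 to -0.111. Without Dox the Actb controls gave 0.184 to 0.254 in APC-WT and 0.174 to 0.219 in APC-KO tumours for the same difference, which overlapped. With Dox they gave 0.167 to 0.19 and 0.193 to 0.275. The part of markers and RNA quality in the differences of the lipid genes was not tested.

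Dox moved none of the 32 genes past the threshold in APC-WT tumours, where 0.0271% of all tested genes passed. At an unadjusted p under 0.05 there were 5, all in the sterol arm, against 15.5% of all tested genes. With limma's array quality weights 1 of the 32 passed, Hsd17b7, against 5.9% of all tested genes under those weights. The sterol arm lay above 0 for 15 of 17 genes, with a median of 0.29, and the fatty acid arm for 6 of 8, with a median of 0.17, against -0.008 over all tested genes. Without APC-WT no-Dox tumour 2 these medians became 0.10 and -0.03.

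Hsd17b7 had the smallest adjusted p, 0.159, for a difference of 0.48 ± 0.15. Its 3 values with Dox, 7.76, 7.73 and 7.77, lay above 7.54, 6.96 and 7.33 without Dox, and its other probe sets above the floor gave 0.41 and 0.37, which did not pass. Hmgcs1 had 10.95, 10.22 and 10.85 without and 11.16, 11.00 and 10.99 with Dox (difference 0.38 ± 0.17, adjusted p = 0.309). Sqle had 9.71, 8.97 and 9.74 and 10.07, 9.81 and 9.80 (0.42 ± 0.23, adjusted p = 0.387). These and Mvd, Msmo1 and Sc5d made 6 members whose values with Dox all lay above those without, as did 11% of all tested genes. The 3 values with Dox were close together in several of them, as for Sc5d at 9.31, 9.32 and 9.30, while tumour 2 was the lowest of those without Dox. Cyp51 and Mvk had an unadjusted p under 0.05 but overlapped, with differences of 0.45 ± 0.20 and 0.30 ± 0.12. Mvk had 7.22, 6.89 and 7.01 without Dox and 7.43, 7.20 and 7.39 with Dox. Among the fatty acid genes Elovl6 had the largest difference, 0.31 ± 0.16 (adjusted p = 0.358). Srebf1, Srebf2 and Scap differed by 0.04, 0.02 and 0.01. A sign of RNA quality, the 3′ minus 5′ log2 difference of the Gapdh control probe sets, differed between these groups. It lay between -0.116 and -0.092 without Dox and between -0.188 and -0.158 with Dox. That of the Actb controls overlapped (0.184 to 0.254 and 0.167 to 0.19), as did the 18S values (9.201 to 9.327 and 9.058 to 9.328). The part of RNA quality was not tested.

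**Figure D4:**
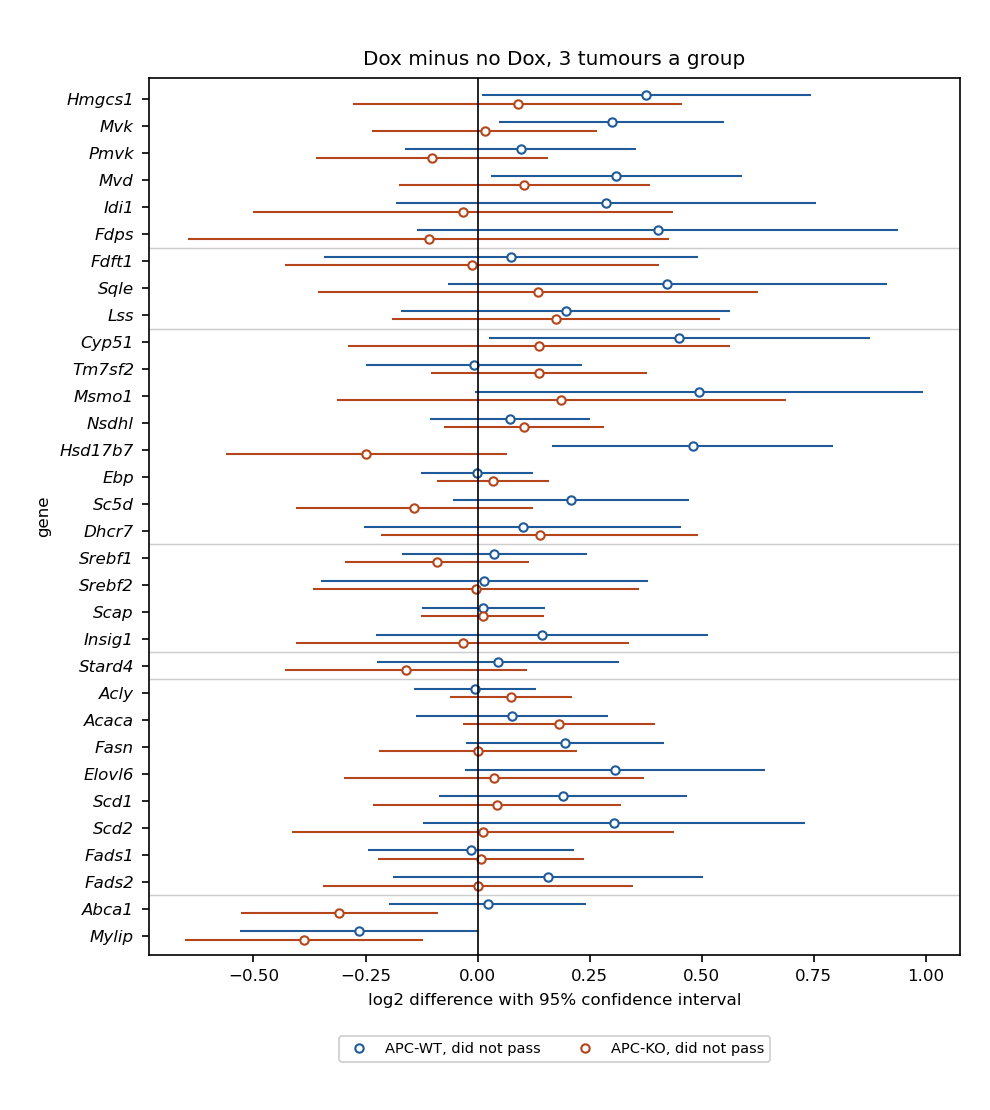
Log2 difference between tumours with and without Dox for each gene (rows, in order of role), blue for APC-WT tumours and orange for APC-KO tumours, with 95% confidence intervals from limma. No gene passed; the APC-WT points of the sterol rows lie mostly to the right of 0, with Msmo1 farthest at 0.49, and the APC-KO points lie around 0.

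In APC-KO tumours Dox again moved 0 of the 32 members past the threshold, against 0.542% of all tested genes, and 2 had an unadjusted p under 0.05, against 13.1% of all. The medians were 0.09 for the sterol arm and 0.02 for the fatty acid arm, and each crossed 0 without APC-KO no-Dox tumour 3 (-0.01 and -0.07). Those 2 genes were the LXR targets. Abca1 had 10.84, 11.21 and 10.98 without Dox and 10.68, 10.67 and 10.76 with Dox, and Mylip had 9.33, 9.78 and 9.52 and 9.24, 9.21 and 9.01. Both lay wholly lower with Dox, as did 9.67% of all tested genes, with differences of -0.31 ± 0.10 and -0.39 ± 0.12 (adjusted p = 0.21 and 0.197). Hsd17b7 had the lowest difference of the sterol arm, -0.25 ± 0.15 (adjusted p = 0.498). Acaca, at 0.18 ± 0.10, had the highest of the fatty acid arm. Among the mevalonate genes Pmvk had the smallest p, with 7.92, 7.81 and 7.63 without Dox and 7.73, 7.51 and 7.82 with Dox. Beside these values, S100a8 and S100a9 of the 3 neutrophil markers tested were lower with Dox, the summed neutrophil marker level ran from 512 to 1857 without Dox and from 173 to 235 with Dox, the 18S ribosomal RNA controls from 9.475 to 9.758 and from 8.959 to 9.237 on the log2 scale, and their part was not tested.

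Averaged over genotypes, Dox again moved 0 of 32 past the threshold (0.958% of all tested genes passed), with 2 at an unadjusted p under 0.05, against 17.4% of all. Mylip came nearest, at -0.33 ± 0.09 (adjusted p = 0.0941). The sterol arm had a median of 0.13 and the fatty acid arm of 0.11, with 16 of 17 and 7 of 8 genes above 0.

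The test of whether Dox acted differently in the 2 genotypes passed for 0 of 32 members and for 0% of all tested genes (limma); 2 members and 11.9% of all genes had an unadjusted p under 0.05. Hsd17b7 had the largest such difference, -0.73 ± 0.21 (95% interval -1.17 to -0.28, adjusted p = 0.252), the Dox difference being 0.48 in APC-WT tumours and -0.25 in those with APC-KO. Fdps, at -0.51 ± 0.35 (adjusted p = 0.605), and Sc5d, at -0.35 ± 0.17 (adjusted p = 0.458), came next in size. Abca1 had the second smallest p, at -0.33 ± 0.14 (adjusted p = 0.401), with 10.83, 10.75 and 11.03 without Dox and 10.68, 11.03 and 10.96 with Dox in APC-WT tumours. Sqle, at -0.29 ± 0.32, had 10.10, 9.51 and 9.31 without Dox and 9.84, 9.38 and 10.11 with Dox in APC-KO tumours. Fasn, at -0.19 ± 0.15, had 10.27, 9.84 and 10.22 and 10.32, 10.30 and 10.26 in the APC-WT and APC-KO tumours without Dox. The sterol arm's median was -0.28 and the fatty acid arm's -0.15, which became -0.05 and 0.05 without APC-WT no-Dox tumour 2. So the larger sterol differences with Dox in APC-WT tumours were not shown to differ from those in APC-KO tumours.

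The balance of the 2 arms was described tumour by tumour as the sterol arm's median deviation from each gene's own mean, minus the same for the fatty acid arm. It was 0.13, -0.0028 and 0.0077 in APC-WT tumours 1, 2 and 3 without Dox and 0.15, 0.17 and 0.22 with Dox. In APC-KO tumours it was 0.07, -0.26 and -0.26 without Dox and -0.15, -0.17 and -0.14 with Dox. The tumours with Dox were therefore on opposite sides of 0 by genotype, while APC-KO no-Dox tumour 1 lay among the APC-WT tumours. These values rest on genes chosen with earlier results known and were not tested.

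**Figure D5:**
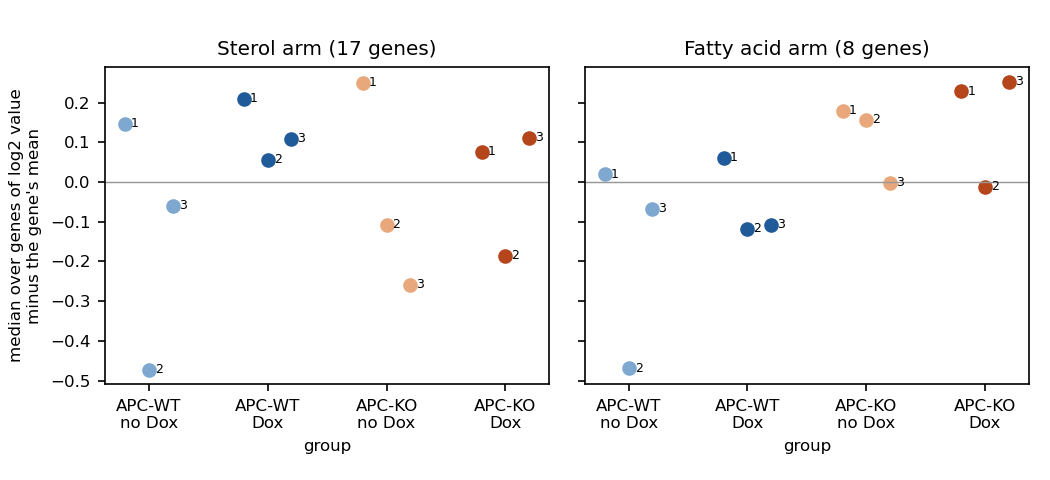
Median over the 17 sterol genes (left) and the 8 fatty acid genes (right) of the log2 value minus the gene's mean over 12 tumours, for each tumour (points, numbered by replicate) by group. APC-WT no-Dox tumour 2 lies at -0.47 in both panels, and the APC-KO points lie between -0.01 and 0.25 for the fatty acid genes.

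Other genes of sterol supply and control came from a list of 13, of which 8 were tested. Among them was the gene with the largest averaged genotype difference of the members and the other pathway genes tested. Mbtps2, the protease that makes the second cut in SREBP, had 8.87, 8.91 and 8.83 in APC-WT tumours without Dox and 8.87, 8.86 and 8.75 with Dox. It had 9.44, 9.51 and 9.63 in APC-KO tumours without Dox and 9.65, 9.76 and 9.66 with Dox. The genotypes were apart by 0.66 ± 0.06 in tumours without Dox (adjusted p = 1.01e-05) and by 0.86 ± 0.06 in those with Dox (adjusted p = 1.07e-06), read from 1 probe set. Averaged over Dox 5 of the 8 passed, against 36.5% of all tested genes. Tmem97, a regulator of the lysosomal cholesterol transporter, Npc1, that transporter, and Insig2, a retention protein of SREBP, were higher too, by 0.38 ± 0.08, 0.18 ± 0.05 and 0.17 ± 0.06. By Dox state, Insig2 passed without Dox (0.37) and lay at -0.03 with Dox, Tmem97 passed without Dox (0.46) and lay at 0.30 with Dox, and Npc1 lay at 0.07 without Dox and passed with Dox (0.29). Ggps1, which makes geranylgeranyl diphosphate, was lower (-0.25 ± 0.06). Mbtps1, which makes the first cut, differed by 0.10 ± 0.05 (adjusted p = 0.111).

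Of 15 other genes of fatty acid and glyceride metabolism 11 were tested, and 2 passed averaged over Dox, against 36.5% of all tested genes. Elovl1, the elongase of very long saturated chains, was lower (-0.24 ± 0.04), with 9.63, 9.72 and 9.61 in APC-WT and 9.32, 9.39 and 9.40 in APC-KO tumours with Dox, and its 2 other probe sets above the floor gave -0.20 and -0.29. Gpam, the first acyltransferase of glyceride synthesis, was higher (0.15 ± 0.05), at 0.27 without Dox and 0.04 with Dox. Without Dox, Gpam was higher and Elovl1 and the lipoprotein lipase Lpl were lower, the last with a difference of -0.37 ± 0.13 (limma adjusted p = 0.0451). The mean log2 value of Lpl over all arrays was 5.88, near the floor of 5.552. With Dox, Lpin1, a phosphatidate phosphatase, was higher (0.45 ± 0.10) and Elovl1 lower. Of all tested genes 24.9% passed without Dox and 19.9% with Dox. Of 4 other LXR-linked genes tested, Abcg1, a sterol exporter, was higher (0.31 ± 0.07, adjusted p = 0.00437). Dox moved none of these 23 genes past the threshold in either genotype or averaged (limma), with 5 of them at an unadjusted p under 0.05 in APC-WT tumours, 5 in APC-KO tumours and 7 averaged over genotypes, against 15.5%, 13.1% and 17.4% of all tested genes.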

How the data were processed

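RNA of 12 tumours was measured on Affymetrix Mouse 430 2.0 arrays. The deposited values are log2 per probe set, from 1.863 to 14.163 over 45101 probe sets; MAS5 is named in the submitters' processing notes, with no version, and whether it made these values is not stated. Groups follow the labels.

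Each gene was read from the probe set with the highest mean among those annotated to it alone, and 11070 genes with a mean at or above the median probe set were tested with limma 3.58.1 (R 4.3.3): group means of 4 groups, eBayes with trend, 7 contrasts, two-sided, Benjamini-Hochberg over all tested genes, threshold 0.05. Second probe sets were adjusted over all probe sets above the floor. The fit was tested on simulated data. Array medians ran from 5.535 to 5.576, and correlations within groups from 0.995 to 0.998; 3 arrays a group limit the precision. Values were given per tumour for genes that passed and for the smallest p of each role. Other pathway genes and markers of adipocytes, colon epithelium, macrophages, neutrophils, T cells, fibroblasts, endothelium and smooth muscle came from lists. The members and lists were chosen with earlier results of these data known. Alternatives changed the filter, probe set rule, scaling, weights, trend and samples (statmod 1.5.0 for weights); figures used Python 3.11.15 and matplotlib 3.10.9.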

Additional observations from a re-analysis of the deposited data

How the results depend on the processing

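No direction of a called member turned under any alternative run. With the mean of probe sets 3 members passed between genotypes with Dox, and with array quality weights 11 passed with Dox, 7 without Dox, and 1 (Hsd17b7) for Dox in APC-WT tumours, where 31.7%, 25% and 5.9% of all tested genes passed under those weights; the cause was not tested. Leaving out single tumours gave 6 to 12 members between genotypes averaged over Dox, 2 to 6 with Dox and 3 to 7 without Dox. The fatty acid arm's median ran from -0.034 to 0.25 for Dox in APC-WT tumours and from -0.24 to 0.047 for the interaction. The sterol arm's ran from -0.18 to 0.02 between genotypes with Dox, from -0.04 to 0.26 without Dox and from -0.05 to 0.09 averaged. With the mean of probe sets the fatty acid arm's median between genotypes was 0.10 averaged over Dox and 0.081 with Dox. The calls of Acaca (0.12) and Fads1 (0.075) averaged over Dox, of Scd1 (0.35) and Acaca (0.053) with Dox and of Stard4 without Dox (-0.23) were lost with the mean of probe sets. That of Stard4 was also lost with only the groups compared. The calls of Acaca and Dhcr7 with Dox were lost without the trend and with no filter, that of Acaca also with centred arrays, and that of Dhcr7 also with the mean of probe sets (adjusted p = 0.0525). The calls of Scd2 and Srebf1 were lost without the trend, with the mean of probe sets, with no filter, with quantile normalization and with centred arrays. Deviations from the group mean had correlations from -0.221 to 0.175 between same-numbered tumours, with 4 of 18 pairs over 0.1. Without Dox, APC-WT and APC-KO tumours numbered 1 gave 0.101 and those numbered 2 gave 0.138. APC-WT no-Dox and APC-KO Dox tumours 2 gave 0.175, and APC-WT Dox and APC-KO no-Dox tumours 2 gave 0.14. The other pairs of tumours numbered 2 lay between -0.059 and -0.017. With the replicate number as a block 12 members passed averaged over Dox, 7 with Dox, 6 without Dox and 0 in each Dox contrast and the interaction. With the floor at the 75th percentile Dhcr7 and Hsd17b7 were not tested. With 3 tumours a group, small differences could not be told from 0.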
